A study of Mus musculus and Acomys cahirinus with 84 samples.

Results

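Primary skin fibroblasts of mice labelled C56BL6 were compared 12 d after 10 Gy of gamma radiation with untreated cells of the same time point. The comparison rests on 8 of the 84 libraries of the series, 4 labelled 10 Gy and 4 labelled untreated, and the 8 were chosen by these labels alone. They were set in pairs by replicate number, because the library names give each of the 4 numbers the same animal code in both groups. Messenger RNA was measured by stranded RNA sequencing of polyA RNA, and the values below are reads counted per gene.

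In the whole series, fibroblasts of C56BL6 mice, wild mice and the African spiny mouse received 0, 10 or 20 Gy and were collected after 24 h or 12 d. At 12 d a further untreated group is labelled as passaged. The groups used here are C56BL6 at 12 d untreated, 10 Gy, 20 Gy and untreated passaged, and wild mice at 12 d untreated and 10 Gy, with 4 libraries each. The labels give no genotype, age or sex and name no agent other than the radiation. All 12 d libraries carry 1 batch label. How often the passaged control was passaged, and how the plain control was kept for 12 d, are not given in the sources used here.

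Ionising radiation breaks both strands of DNA. The damage activates the kinase ATM and the transcription factor p53, which induces the cell cycle inhibitor p21 (Cdkn1a), its own antagonist Mdm2 and genes of apoptosis and repair. Cells that do not resume division can enter senescence, a lasting arrest known for loss of lamin B1 and for secretion of cytokines, proteases and growth factors. DNA outside the nucleus or RNA of endogenous repeats can in addition start an interferon response, and dermal fibroblasts are the main makers of collagen and other matrix proteins in skin.

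The libraries held 26.65 to 31.81 M counts at 10 Gy and 28.27 to 32.35 M counts untreated. In these 8 libraries 3 counts, taken as the floor of detection, equal 0.093 to 0.113 counts per M of the library total, which covers counting error only. Levels are given as CPM (counts per M, scaled by TMM), and the floor was not scaled by TMM, so it is approximate for them. Fibroblast markers were present in every library, with a summed level of 27100 to 49400 CPM untreated and 9570 to 11900 CPM at 10 Gy for the 10 markers. The change of these markers is given with the matrix genes. Markers of leukocytes summed to 16.9 to 43.7 CPM untreated and 30.7 to 43.2 CPM at 10 Gy, mostly Csf1r and Lyz2, and Tyrobp had 0 counts in every library. Of the 4 leukocyte markers tested, Csf1r and Cd68 rose (log2 1.35, adjusted p 0.000142 and log2 1.08, adjusted p 0.00471), while Lyz2 and Cd14 gave -0.24 and -0.34 and did not pass, and the part of these markers in the results was not tested. Because the samples are bulk cultures, fewer cells of a type and less RNA per cell cannot be told apart in any result below.

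Replicate 1 stood apart from the other 3 in every treatment. Keratinocyte keratin Krt14 was at 442 CPM in its untreated library and 137 CPM at 10 Gy, against at most 0.0599 CPM in the other 6 libraries. Krt5, its partner in basal keratinocytes, was at 435, 0.0738, 0.0331 and 0.0661 CPM untreated in replicates 1 to 4 and at 63.5, 1.07, 1.26 and 0.809 CPM at 10 Gy. Dsp, which encodes the desmosomal protein desmoplakin, was at 98, 0.0369, 0 and 0.0991 CPM and 50.2, 1.44, 0.948 and 0.809 CPM in the same order. So Krt5 and Dsp were near 1 CPM at 10 Gy in replicates 2 to 4 and under 0.1 CPM there when untreated, while Krt14 stayed under the floor in those 3 replicates. Of the 5 keratinocyte markers tested, 1 rose and 1 fell, and Krt5, Dsp and Krt10 did not pass. Krt15 rose, in replicates 2 to 4 from 0.0738, 0 and 0.033 CPM to 2.227, 1.201 and 0.7793 CPM. Trp63 fell (log2 -1.89), in the same replicates from 0.997, 0.961 and 1.917 CPM to 0.282, 0.411 and 0.4496 CPM. The summed level of the 10 keratinocyte markers ran from 2.49 to 983 CPM untreated and from 5.01 to 258 CPM at 10 Gy, and their part in the results was not tested. Results are therefore also given without replicate 1.

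**Figure D1:**
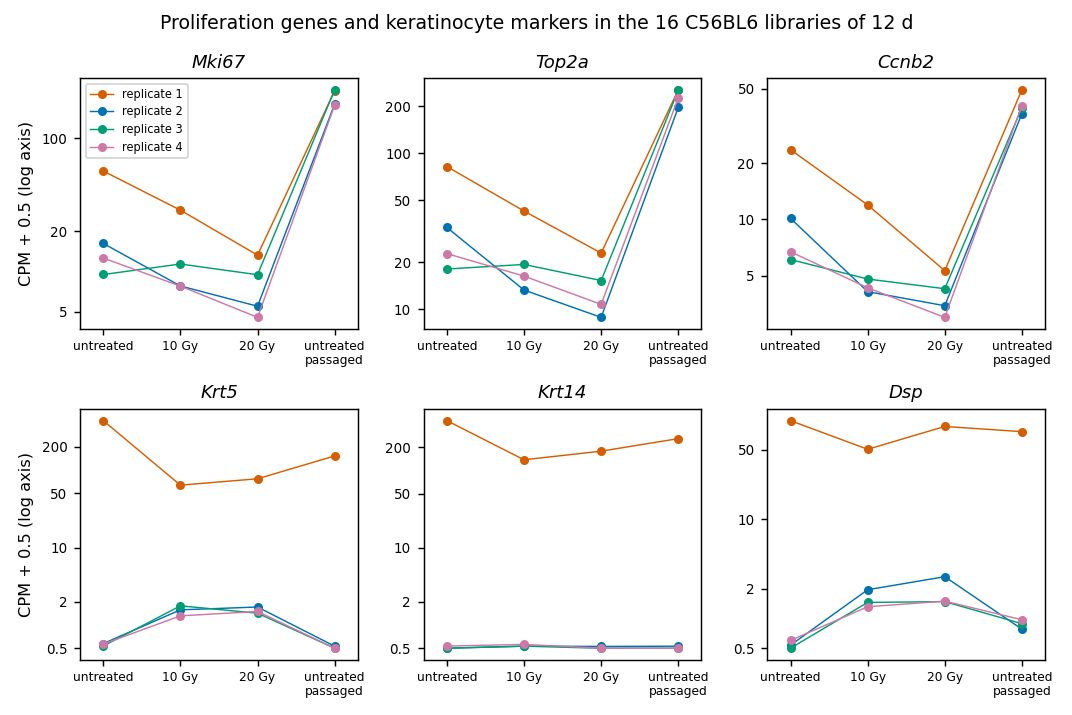
Level of 3 proliferation genes and 3 keratinocyte markers, as CPM + 0.5 on a log axis, in the 16 C56BL6 libraries of 12 d, by treatment group, with 1 line per replicate number. Replicate 1 lies above the other replicates for Krt5, Krt14 and Dsp in all 4 groups, and the 4 passaged libraries are the highest for Mki67, Top2a and Ccnb2.

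Of 14894 genes tested, 2858 were higher at 10 Gy (19.2%) and 2928 lower (19.7%) with an adjusted p under 0.05 in edgeR's quasi-likelihood test with the replicate number as a block and Benjamini-Hochberg adjustment. At least 2-fold changes were found for 1047 higher genes (7.03%) and 634 lower genes (4.26%). In 1759 genes (11.8%) all 4 irradiated libraries lay above all 4 untreated ones, and in 2115 genes (14.2%) all lay below. All 4 pairs went up in 3639 genes (24.4%) and down in 4385 (29.4%). Without the pairing 3107 genes passed the threshold (20.9%), 1529 higher (10.3%) and 1578 lower (10.6%). Without replicate 1 the count was 3034 higher and 3068 lower of 15048 tested, and without replicate 3 it was 3376 in all, the lowest of the 4. More than 1 gene in 3 passed the threshold, so each list below is read against 19.2% higher and 19.7% lower and against the median log2 fold change of all genes tested, which was 0.

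**Figure D2:**
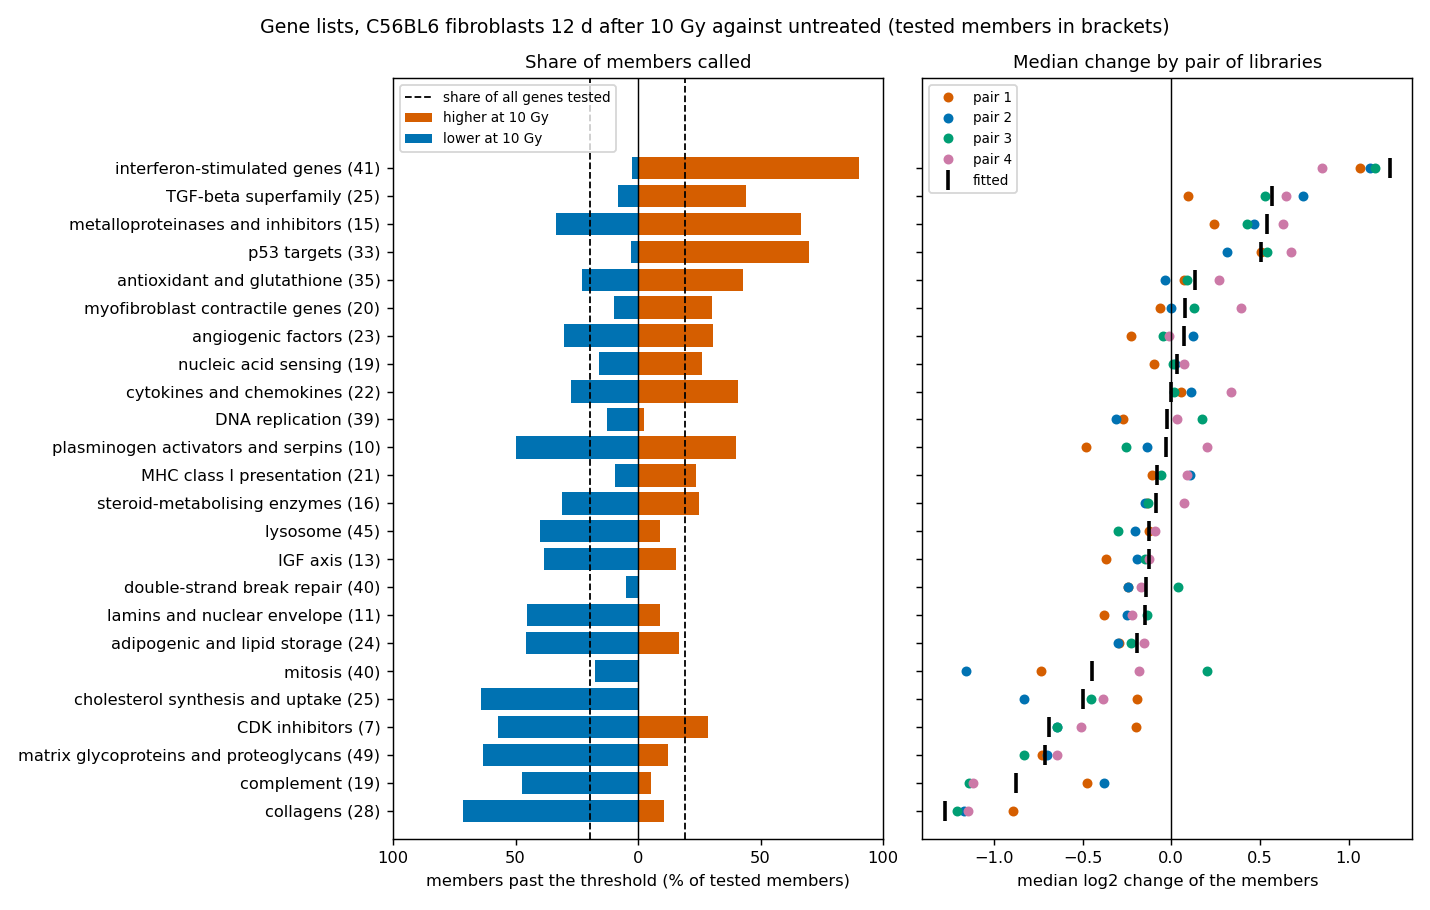
Left, share of the tested members of 24 gene lists that passed the threshold in each direction, 10 Gy against untreated, with dashed lines at the share over all genes tested (19.2% higher, 19.7% lower). Right, the median log2 change of the members in each of the 4 pairs of libraries, from CPM + 0.5, and from the fit. Interferon-stimulated genes lie at the top with a fitted median of 1.23 and collagens at the bottom with -1.28.

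Genes induced by p53 were higher 12 d after irradiation. Of 33 p53 targets tested, 23 rose, 1 fell and 9 did not pass the test, with a median log2 fold change of 0.51. Mdm2 (chromosome 10, 117524780 to 117546663, GRCm39), the ubiquitin ligase that degrades p53, stood at 97.2, 161, 105 and 105 CPM in the untreated libraries 1 to 4 and at 308, 394, 334 and 292 CPM after 10 Gy. All 4 irradiated libraries lay above all untreated ones, a 2.94-fold rise (log2 fold change 1.55, SE 0.0919, adjusted p 4.41e-05). Cdkn1a (chromosome 17, 29309950 to 29319701), which encodes p21, was at 320.5, 586, 423 and 384 CPM untreated and 690.1, 795, 780.4 and 837 CPM at 10 Gy (log2 fold change 0.92, SE 0.126, adjusted p 0.00127). Here too the groups did not overlap, with untreated replicate 2 the highest of its group. Ccng1, a cyclin G gene under p53 control, went from 311, 886, 503 and 534 CPM to 825, 1332, 1078 and 1133 CPM (log2 fold change 1.07, SE 0.134, adjusted p 0.000856). It rose in every pair, although untreated replicate 2 was above irradiated replicate 1.

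The largest fold among the p53 targets called over all 4 replicates was that of Gdf15, a stress-induced cytokine of the TGF-beta family. It was at 0.682, 3.77, 2.29 and 0.793 CPM untreated and 9.54, 10.9, 14.1 and 9.71 CPM at 10 Gy (log2 fold change 2.79, SE 0.355, adjusted p 0.000914). Without replicate 1 the largest was that of Perp, a gene of cell adhesion and apoptosis, with a log2 fold change of 3.13 (adjusted p 4.34e-06) against 2.48 for Gdf15. In replicate 1 Perp was at 219.8 CPM untreated and 99.1 CPM at 10 Gy, whereas in the other 3 it was at most 3.43 CPM untreated and 8.06 to 20.3 CPM at 10 Gy. With replicate 1 it did not pass (log2 1.73, adjusted p 0.114). The apoptosis gene Pmaip1, which encodes Noxa, rose from a mean of 6.6 ± 3.85 to 28.3 ± 7.88 CPM (SD, n = 4; log2 2.26, adjusted p 0.000131), and the polo-like kinase gene Plk3 from 6.32 ± 3.59 to 20.1 ± 3.16 CPM (log2 1.82, adjusted p 0.00041). Plk2, a second kinase of that family, rose 3.15-fold and Pidd1, which encodes a death-domain adaptor, 3.14-fold. Sesn1, which encodes the stress protein sestrin 1, was the single member that fell, from 35.2, 37.5, 36.5 and 38.1 CPM to 15.5, 15.6, 15.5 and 17.9 CPM (log2 fold change -1.17, SE 0.0766, adjusted p 6.04e-05), while its relative Sesn2 rose (log2 0.42, adjusted p 0.0243). The p53 targets Bbc3, Ddb2, Ppm1d and Rrm2b did not pass the test. Without the pairing 13 of the 33 were higher, and without replicates 1 to 4 in turn it was 22, 20, 17 and 17. The call for Sesn2 was lost without replicate 1, 3 or 4 (adjusted p 0.0501, 0.0833 and 0.102) and without the pairing (0.204).

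Among the 7 inhibitors of cyclin-dependent kinases, the members moved in opposite directions. Cdkn1a and Cdkn2b rose, the second by a log2 fold change of 0.34 (adjusted p 0.00998, and 0.503 without the pairing). Cdkn2a, the p16 and p19ARF locus used as a marker of senescence, was at 114, 174, 111 and 115 CPM untreated and 99, 157, 106 and 141 CPM at 10 Gy, and did not pass (adjusted p 0.993, log2 fold change 0.0012, SE 0.0932). The gene-level count does not separate its transcripts. Cdkn1b, which encodes p27, fell from 115, 119.8, 139 and 149.6 CPM to 37.9, 45.9, 49.7 and 52.1 CPM (log2 fold change -1.47, SE 0.0728, adjusted p 2.01e-05), and its groups did not overlap. Cdkn2c, which encodes p18, fell 2.5-fold, Cdkn1c, which encodes p57, 2.81-fold (from 23.2 ± 23.3 to 5.96 ± 2.15 CPM, with 57 CPM in untreated replicate 2), and Cdkn2d also fell (log2 -0.69, adjusted p 0.00215). The Cdkn1c call was lost without replicate 3 or 4 (adjusted p 0.0571 and 0.0544) and without the pairing (0.0928).

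Few genes of DNA replication and mitosis passed the test between irradiated and plain untreated cells. Of 40 mitosis genes, 7 fell and 0 rose, with a median of -0.45, and the medians of the 4 pairs were -0.73, -1.16, 0.20 and -0.18. Mki67, which encodes the proliferation antigen Ki-67, was at 56.2, 15.8, 9.01 and 12.1 CPM untreated and 28.4, 7.31, 10.9 and 7.28 CPM at 10 Gy (log2 fold change -0.62, SE 0.21, adjusted p 0.0484). Replicate 1 was the highest in both groups, the other untreated libraries overlapped the irradiated ones, and replicate 3 was higher at 10 Gy. Top2a, the topoisomerase of dividing cells, was at 81.5, 32.9, 17.6 and 22.2 CPM and 42.1, 12.8, 18.9 and 15.8 CPM, again highest in replicate 1 (log2 -0.65, adjusted p 0.0396). The calls of both genes were lost without replicate 1, 2 or 4 (adjusted p for Mki67 0.0965, 0.158 and 0.154; for Top2a 0.0622, 0.122 and 0.097). Nuf2, Bub1b and Ccnb2, which encode a kinetochore protein, a checkpoint kinase and cyclin B2, fell with log2 fold changes of -0.92, -0.87 and -0.85, and the Nuf2 call was lost without replicate 2 or 3 (adjusted p 0.057 and 0.0526). Without the pairing no mitosis gene passed, and without single replicates 1 to 4 the number that fell was 5, 3, 14 and 3.

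Of 39 DNA replication genes, 1 rose and 5 fell, with a median of -0.03. The one that rose was Rrm2, which encodes a subunit of ribonucleotide reductase, from 41.9, 22.7, 13.8 and 12.1 CPM to 57.9, 52.6, 43.4 and 37.3 CPM (log2 fold change 1.26, SE 0.188, adjusted p 0.0018, adjusted p 0.0727 without the pairing). Gins4, a subunit of the replicative helicase, fell from 33.5, 58.6, 59.2 and 59.2 CPM to 25.9, 28.3, 28.4 and 34 CPM (log2 -0.80, adjusted p 0.00208). Lig1 and Mcm6 fell by less (-0.39 and -0.37). The Lig1 call was lost without replicate 2 or 3 and without the pairing (adjusted p 0.0956, 0.0611 and 0.234), and the Mcm6 call without replicate 1, 2 or 4 and without the pairing (adjusted p 0.406). Without replicate 1 the list had 4 higher and 6 lower genes, as Mcm10, Chaf1a and Chaf1b then also passed (log2 0.99, 0.44 and 0.66). Without replicate 2 it had 1 higher and 2 lower, and without the pairing 0 and 2. Among 40 genes of double-strand break repair 0 rose and 2 fell, Rad51b (log2 fold change -1.17, SE 0.21, adjusted p 0.00392) and Xrcc6, the Ku70 gene (log2 -0.30, adjusted p 0.0211). The median of that list was -0.14. The Xrcc6 call was lost without replicate 2 or 3 (adjusted p 0.0752 and 0.0584) and without the pairing (0.0873), and without replicate 1 the list had 1 higher and 2 lower genes.

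Of 11 genes of lamins and the nuclear envelope, 5 fell and 1 rose. Lmnb1, which encodes lamin B1, was at 22, 9.89, 11 and 12.3 CPM untreated and 12.7, 8.09, 9.7 and 8.87 CPM at 10 Gy (log2 fold change -0.41, SE 0.126, adjusted p 0.0353). The groups overlapped, and the call was lost without any 1 of the 4 replicates (adjusted p 0.0889, 0.057, 0.0537 and 0.111) and without the pairing (0.269). Hmgb1 encodes a chromatin protein that senescent cells are known to lose from the nucleus, which RNA counts do not show. Its RNA fell from 239, 183, 189.6 and 177 CPM to 125, 94.2, 96.7 and 112 CPM with no overlap (log2 fold change -0.85, SE 0.079, adjusted p 0.000235). Hmgb2 and Sun1 also fell (-0.68 and -0.43), Hmgb2 without a call when the pairing was left out (adjusted p 0.128). Lmna, which encodes lamins A and C, rose from 454 ± 113 to 598 ± 28.4 CPM (log2 0.46, adjusted p 0.0205), a call lost without replicate 3 or 4 (adjusted p 0.101 and 0.0792). Without the pairing 2 genes of the list were lower and 0 higher.

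Cytokines and chemokines went in both directions, 9 higher and 6 lower of 22 tested. Ccl2 (chromosome 11, 81926397 to 81928279), the chemokine that attracts monocytes, had the largest fold among those well above the floor. It was at 15.3, 16.5, 15.9 and 14.9 CPM untreated, within a narrow range, and at 84.6, 135, 176 and 193 CPM at 10 Gy, a 9.2-fold rise (log2 fold change 3.20, SE 0.191, adjusted p 4.52e-05). Il6, a cytokine of the senescent secretome, was at 5.24, 21.2, 44.1 and 45 CPM untreated and 13.8, 63.1, 102 and 106 CPM at 10 Gy (log2 fold change 1.38, SE 0.0896, adjusted p 5.89e-05). Each pair rose by a similar factor, but the levels of the 4 animals differed so widely that the groups overlapped and the call was lost without the pairing (adjusted p 0.238). Csf1, the growth factor of macrophages, rose from 921 ± 255 to 2545 ± 502 CPM (log2 1.52, adjusted p 8.04e-05). Lif and Il11, cytokines of the Il6 family, rose 5.01-fold and 2.76-fold, and Ccl7 rose 2.18-fold. Ccl20 and Ccl5 were under the floor or close to it in the untreated libraries and reached 0.354, 2.26, 1.33 and 2.01 CPM and 1.38, 0.565, 0.695 and 0.39 CPM at 10 Gy. They passed the test (adjusted p 0.000515 and 0.00335) at levels that remained low. Il1a, Il1b, Tnf, Csf2, Cxcl2 and Cxcl9 were below the filter on low counts.

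The cytokine genes that fell included some of the most abundant. Cxcl12, the chemokine that holds leukocytes and stem cells in place, fell from 1177, 3305, 4360 and 4517 CPM to 602, 574, 563 and 709 CPM (log2 fold change -2.27, SE 0.311, adjusted p 0.00128). Il1rn, which encodes the antagonist of the interleukin-1 receptor, fell from 32.9, 50.4, 25.2 and 45.2 CPM to 4.04, 5.83, 4.68 and 4.92 CPM (log2 fold change -2.92, SE 0.14, adjusted p 1.96e-05), and its groups were far apart. Il33, an alarmin of the interleukin-1 family, fell 5.38-fold and Tnfsf11, which encodes RANKL, 7.54-fold, a log2 fold change of -2.91 that was -2.32 without replicate 3. Without replicate 1 the counts were 9 higher and 7 lower, and the median log2 fold change of the list was -0.002 with it and 0.10 without it.

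Of 15 matrix metalloproteinases and their inhibitors, 10 rose and 5 fell. Mmp3, which encodes stromelysin, was at 2.33, 0.48, 2.32 and 1.55 CPM untreated and 2.41, 9.47, 7.05 and 11.4 CPM at 10 Gy (log2 fold change 2.13, SE 0.569, adjusted p 0.0205), a call lost without replicate 4 (adjusted p 0.112), and without replicate 1 its log2 fold change was 2.73. The collagenase gene Mmp13 and the stromelysin gene Mmp10 were at 0.323, 0, 0.0331 and 0 CPM and 0.179, 0.111, 0 and 0 CPM untreated, mostly under the floor, and at 1.52, 2.13, 1.61 and 0.809 CPM and 0.567, 2.01, 1.77 and 0.869 CPM at 10 Gy. The inhibitors Timp1, Timp2 and Timp3 rose by 0.36, 0.37 and 0.78 on the log2 scale. The call of Timp2 was lost without any 1 replicate, that of Timp1 without replicate 3 or 4, and that of Timp3 without the pairing (adjusted p 0.14). Mmp2, a gelatinase, fell from 588, 603, 761 and 698 CPM to 327, 282, 297 and 292 CPM (log2 fold change -1.11, SE 0.104, adjusted p 0.000242). Mmp19 fell from 116, 120.5, 115 and 122 CPM to 68, 67.3, 70.2 and 73.7 CPM (log2 -0.73, adjusted p 0.000237), with little spread in either group, and Mmp23 fell 2.93-fold. Without the pairing 4 genes of the list were higher and 4 lower, and without replicate 4 it was 6 and 5.

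The plasminogen system split likewise, 4 higher and 5 lower of 10. Plaur, the urokinase receptor, rose from 31.5, 16.3, 11.9 and 10.8 CPM to 71.5, 41.3, 43.4 and 41.7 CPM (log2 fold change 1.61, SE 0.139, adjusted p 0.000176), highest in replicate 1 in both groups. Serpine2, a protease inhibitor, rose 2.1-fold, without a call when the pairing was left out (adjusted p 0.283). Plat, which encodes tissue plasminogen activator, fell from 194 ± 39.4 to 109.9 ± 26.5 CPM (log2 -0.80, adjusted p 0.00051). Serpina3n and Serping1, an antichymotrypsin gene and the inhibitor of complement C1, fell from 701 to 165 CPM and from 517 to 138 CPM (log2 -2.12 and -1.99). Among the untreated libraries Serpina3n was at 102, 334, 1202 and 1166 CPM and Serping1 at 60.8, 350, 863 and 794 CPM, lowest in replicate 1, and both calls were lost without the pairing (adjusted p 0.164 and 0.207). In all, 2 genes of the list were higher and 3 lower without the pairing.

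In the TGF-beta superfamily 11 of 25 genes rose and 2 fell, with a median of 0.57. Grem1, a secreted antagonist of BMPs, rose from 282, 417, 169.7 and 131 CPM to 698, 1059, 1008 and 949.9 CPM (log2 fold change 2.05, SE 0.275, adjusted p 0.00117). Inhba, which encodes the subunit of activin A, rose from 186, 97.6, 85.6 and 80.4 CPM to 272, 334, 291 and 236 CPM (log2 fold change 1.44, SE 0.197, adjusted p 0.00126), and Smad7, an intracellular inhibitor of the pathway, rose 2.3-fold. Bmp1, a procollagen protease, and Bambi, a pseudoreceptor, fell, with log2 fold changes of -0.54 and -0.57, and neither call held without replicate 3 (adjusted p 0.0682 and 0.138), nor that of Bambi without replicate 2 or 4 or the pairing (adjusted p 0.0811, 0.0788 and 0.228). Tgfb1 itself gave 0.28 (adjusted p 0.319), but 0.58 (adjusted p 0.00114) without replicate 1. Without the pairing 5 were higher, and without replicate 1 it was 16, with a median of 0.60. Of 13 genes of the insulin-like growth factor axis, 2 rose and 5 fell. The binding protein gene Igfbp3 fell from 141, 432, 179 and 258 CPM to 19.7, 71.7, 14 and 41.8 CPM (log2 fold change -2.89, SE 0.179, adjusted p 5.22e-05). Igfbp4 fell from 708, 929, 1463 and 1207 CPM to 685, 273, 282 and 317 CPM (log2 -1.52, adjusted p 0.0106), with irradiated replicate 1 well above the other 3 and no call without replicate 4 (adjusted p 0.0639). The growth factor gene Igf1 fell 1.65-fold (adjusted p 0.182 without the pairing), and its receptor gene Igf1r rose 1.44-fold, the latter without a call when replicate 3 was left out (adjusted p 0.0646). Counts of the axis without replicate 3 were 0 higher and 3 lower, and without the pairing 1 and 2.

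Interferon-stimulated genes were the list with the largest share of members called in 1 direction (90.2% higher). Of 41 tested, 37 rose, 1 fell and 3 did not pass, the median log2 fold change was 1.23, and the medians of the 4 pairs lay between 0.85 and 1.15. These genes are switched on by type I interferon through the factor ISGF3, of which Stat2 and Irf9 are parts and which binds the interferon-stimulated response element in their promoters. The letters around the transcription start of 5 members that rose are printed here because they hold the core of that element. Each run covers the 100 bases before the start of the canonical transcript in GENCODE vM39 (GRCm39), on the strand of the gene, and the capitals mark the core GAAANNGAAA or its reverse complement, with overlapping matches merged.
Ifit1, chr19:34618171-34618270, plus strand: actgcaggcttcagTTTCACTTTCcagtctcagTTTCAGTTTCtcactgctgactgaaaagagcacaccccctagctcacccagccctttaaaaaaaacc
Isg15, chr4:156285304-156285403, minus strand: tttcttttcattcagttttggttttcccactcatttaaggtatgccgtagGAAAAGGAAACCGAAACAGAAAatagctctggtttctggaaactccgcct
Usp18, chr6:121222757-121222856, plus strand: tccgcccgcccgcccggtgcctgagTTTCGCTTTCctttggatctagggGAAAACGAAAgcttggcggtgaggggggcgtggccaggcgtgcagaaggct
Oas1g, chr5:121025646-121025745, minus strand: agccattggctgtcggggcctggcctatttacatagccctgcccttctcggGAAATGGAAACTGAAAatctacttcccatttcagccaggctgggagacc
Oas2, chr5:120887934-120888033, minus strand: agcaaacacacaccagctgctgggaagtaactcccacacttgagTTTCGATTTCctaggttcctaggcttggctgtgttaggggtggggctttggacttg
The core was searched on both strands from 250 bases before to 50 bases after the start. It was found in 20 of the 37 members that rose (54.1%), in 1 of the 3 that did not pass, and in 835 of the 21770 protein-coding promoters of the same length (3.84%). Members of such a list are known for this element, so the share describes the list and is no result of the irradiation. A match is a run of letters and not a measured binding site.

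The 3 members Ifit1, Isg15 and Usp18 were chosen after their values were seen, for their printed sequence. Ifit1, an antiviral protein that binds foreign RNA, has 2 such cores and was at 9.47, 11.1, 7.42 and 9.19 CPM untreated and 44.5, 58.7, 56.6 and 62.5 CPM at 10 Gy (log2 fold change 2.61, SE 0.127, adjusted p 1.96e-05). Isg15, a ubiquitin-like modifier with 3 overlapping cores, rose from 8.36, 11.6, 5.87 and 6.44 CPM to 37.9, 33.6, 26.9 and 32.4 CPM (log2 fold change 2.08, SE 0.14, adjusted p 6.63e-05). Usp18, the protease that removes Isg15, rose from 6.6, 1.92, 1.23 and 1.49 CPM to 25.6, 16.6, 15 and 14.8 CPM (log2 fold change 2.95, SE 0.261, adjusted p 0.000195). In all 3 genes the lowest irradiated library lay above the highest untreated one. Oas2, an oligoadenylate synthetase that senses double-stranded RNA, rose from 2.58, 1.99, 1.09 and 2.25 CPM to 14, 20.5, 27 and 23.2 CPM (log2 fold change 3.43, SE 0.297, adjusted p 0.00018). The largest fitted fold changes belonged to low genes. Oas1g was under the floor in all 4 untreated libraries and at 1.77, 1.16, 0.916 and 0.959 CPM at 10 Gy, and Oas3 went from 0.359, 0.0738, 0.0331 and 0.132 CPM to 4.33, 1.63, 2.69 and 2.34 CPM. Oas1g and Oas1a belong to a cluster of near-identical copies, and since reads that map to several places were left out their counts are uncertain.

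Irf7, the factor that amplifies interferon production, rose 3.19-fold (adjusted p 6.86e-05), and Stat2 and Irf9, the parts of ISGF3, by 0.54 and 0.51 on the log2 scale. Isg20, an exonuclease gene, was the member that fell, from 44.7, 28.6, 29.8 and 30.8 CPM to 23, 18.5, 18.2 and 19.2 CPM (log2 fold change -0.72, SE 0.0846, adjusted p 0.000689). The interferon gene Ifnb1 had 0 counts in the untreated libraries, 1 count over the 4 irradiated libraries and 2 counts over the 4 libraries of 20 Gy. Its RNA was therefore not detectable at this depth. Without the pairing 31 of 41 were higher, without replicate 1 it was 39 with a median of 1.21, and over all replicates left out in turn the count lay between 34 and 39.

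**Figure D3:**
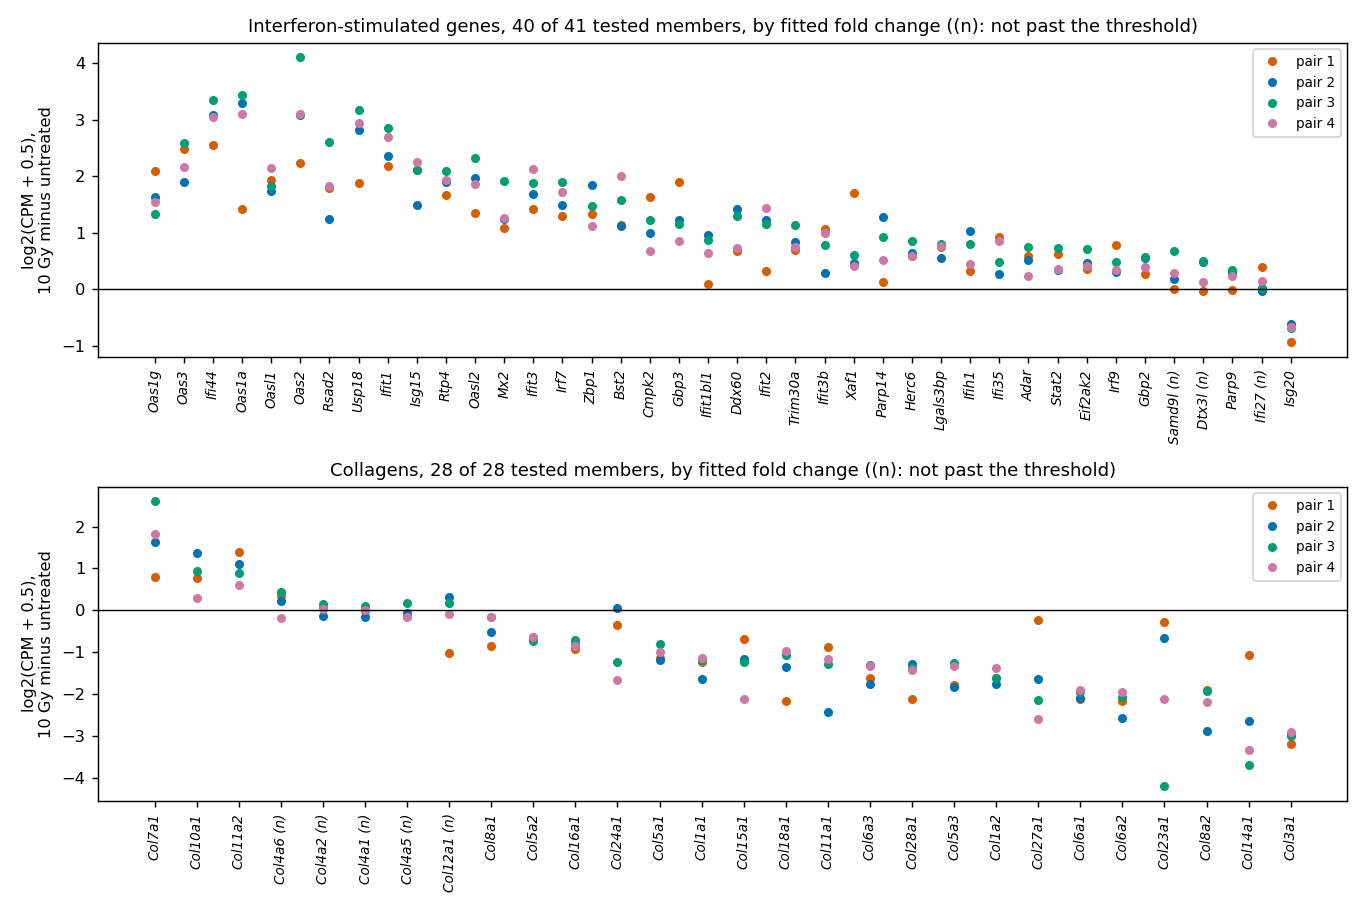
Difference in log2(CPM + 0.5) between the 10 Gy and the untreated library of each of the 4 pairs, for 40 of the 41 tested interferon-stimulated genes (top) and collagens (bottom), ordered by fitted fold change. From Oas1g to Zbp1 every interferon-stimulated gene has all 4 pairs above 0, and from Col27a1 to Col3a1 every collagen has all 4 pairs below 0.

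Of 19 sensors of nucleic acids and their adaptors, 5 rose (26.3%) and 3 fell (15.8%), near the 19.2% and 19.7% of all genes. Zbp1 and Ifih1, among those that rose, are also counted in the list of interferon-stimulated genes. Zbp1, a sensor of Z-form nucleic acid, rose from 2.12, 3.65, 7.26 and 8.49 CPM to 6.1, 14.4, 20.9 and 19 CPM (log2 1.57, adjusted p 0.000264, and 0.0666 without the pairing). The RNA sensor genes Rigi, Ifih1 and Dhx58 rose by 0.70, 0.70 and 1.03 on the log2 scale. Aim2, a sensor of cytosolic DNA, was under the floor untreated and at 0.39, 1.0, 0.663 and 0.629 CPM at 10 Gy. Sting1, the adaptor of the DNA sensor cGAS, fell from 62.6, 44.3, 39.1 and 50.3 CPM to 38, 32, 28.4 and 32.5 CPM (log2 fold change -0.54, SE 0.0796, adjusted p 0.00172), and Cgas itself gave -0.10 (adjusted p 0.668). The interferon receptor genes Ifnar1 and Ifnar2 fell, with log2 fold changes of -0.43 and -0.54, both without a call when the pairing was left out (adjusted p 0.101 and 0.122). Without the pairing 4 of these sensors were higher and 1 lower. In antigen presentation 5 of 21 genes rose (23.8%) and 2 fell (9.52%), against 19.2% and 19.7% of all genes. Nlrc5, the activator of MHC class I genes, rose from 2.15, 0.332, 0.298 and 0.363 CPM to 6.52, 6.96, 6.16 and 4.11 CPM (log2 fold change 3.26, SE 0.463, adjusted p 0.0015), and the class I genes H2-D1 and B2m rose 1.92-fold and 1.56-fold. H2-Q4 also rose (log2 2.52, adjusted p 0.00476), within a family of near-identical copies. The log2 fold changes of Nlrc5 and H2-Q4 were 4.09 and 3.15 without replicate 1, and Nlrc5 was highest in replicate 1 among the untreated libraries. Tapbp, which loads peptide on class I molecules, fell 1.85-fold.

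Of 19 complement genes tested, 9 fell and 1 rose, with a median of -0.87. C3, the central component, went from 448, 1536, 1636 and 2067 CPM to 69.2, 639.8, 478 and 558 CPM (log2 fold change -1.87, SE 0.206, adjusted p 0.000488). It fell in every pair, replicate 1 was the lowest in both groups, the groups overlapped, and the call was lost without the pairing (adjusted p 0.112). C1s1 and C1ra, the proteases that start the classical pathway, fell 3.24-fold and 3.72-fold, and C2, which encodes a convertase subunit, 6.32-fold. Cfd, which encodes adipsin, fell from 10.3, 16.7, 25.4 and 8.13 CPM to 0.142, 0.502, 1.55 and 0.809 CPM (log2 fold change -4.34, SE 0.344, adjusted p 0.00013). C3ar1, the receptor of the C3a fragment, was the member that rose (log2 1.16, adjusted p 0.00954, and 0.323 without the pairing). Without the pairing 4 of 19 were lower and 0 higher.

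Collagens were the list with the lowest median, -1.28, with 20 of 28 tested genes lower and 3 higher. Col3a1 (chromosome 1, 45350698 to 45388866), the chain of fibrillar collagen III, was at 6203, 11680, 29090 and 24270 CPM untreated and 678, 1496, 3627 and 3230 CPM at 10 Gy. That is a 7.93-fold fall (log2 fold change -2.99, SE 0.119, adjusted p 1e-05), with the order of the 4 animals the same in both groups. The chains of collagen I fell by less and with little spread, Col1a1 from 8191, 8122, 6648 and 5863 CPM to 3484, 2623, 2920 and 2685 CPM (log2 -1.26, adjusted p 0.000267) and Col1a2 from 9786, 9662, 9556 and 8821 CPM to 3174, 2865, 3121 and 3386 CPM (log2 -1.56, adjusted p 8.04e-05). The 3 collagen VI chains tested, Col6a1, Col6a2 and Col6a3, fell 3.96-fold, 4.48-fold and 2.77-fold, and Col14a1, a chain that decorates fibrils, 6.54-fold. The log2 fold change of Col14a1 was -2.71 with replicate 1 and -3.31 without it. The basement membrane chains Col4a1, Col4a2, Col4a5 and Col4a6 did not pass the test, with log2 fold changes from -0.02 to 0.24. Col7a1, the anchoring fibril collagen, rose from 35.1, 16, 11.9 and 15.4 CPM to 61.1, 50.7, 75.1 and 55.9 CPM (log2 fold change 1.77, SE 0.255, adjusted p 0.00158), and Col10a1 and Col11a2 rose at low levels, Col10a1 without a call when replicate 3 or the pairing was left out (adjusted p 0.0746 and 0.373). Without the pairing 17 collagens were lower, and without replicate 1 it was 19 with a median of -1.20.

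Among 49 matrix glycoproteins and proteoglycans 31 fell and 6 rose, with a median of -0.71. Egfl6 (chromosome X, 165306003 to 165368716), a secreted EGF-like matrix protein, had the largest fall of the 24 lists, from 44.2, 102, 265 and 215 CPM to 0.248, 1.1, 2.53 and 6.5 CPM (log2 fold change -6.09, SE 0.322, adjusted p 2.66e-05), or -6.72 on the log2 scale without replicate 4. Fbn2, Mfap4 and Eln, parts of elastic fibres, fell 17-fold, 13.9-fold and 6.42-fold, while Fbn1 fell 1.66-fold. The small leucine-rich proteoglycans Lum, Podn and Dcn fell 9.96-fold, 7.73-fold and 2.72-fold. Fbn1 and Dcn had no call without the pairing (adjusted p 0.0926 and 0.123). Vtn, which encodes vitronectin, fell from 0.897, 4.5, 15.1 and 22.4 CPM to 0.106, 0.0941, 0.284 and 0.36 CPM, so that the irradiated level was near the floor. The abundant adhesive genes Fn1 and Thbs1 did not pass the test, at 6076 to 6505 CPM (log2 0.13, adjusted p 0.531) and 18580 to 21090 CPM (log2 0.20, adjusted p 0.246). Spp1, which encodes osteopontin, rose from 62, 64.2, 58.1 and 96.8 CPM to 188, 211, 174 and 338 CPM (log2 fold change 1.71, SE 0.0744, adjusted p 1.34e-05). Ccn2, the connective tissue growth factor, rose 2.89-fold and Efemp1 1.59-fold, neither with a call without the pairing (adjusted p 0.0711 and 0.602). Without the pairing 16 of the list were lower and 1 higher, and without replicate 3 it was 28 and 3.

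Of the 10 fibroblast markers, 7 fell and 0 rose. Those that fell were the matrix genes Col1a1, Col1a2, Col3a1, Dcn and Lum together with Pdgfra, a receptor for platelet-derived growth factor, and the protease gene Fap. Pdgfra went from 681, 784, 905 and 986 CPM to 202, 323, 240 and 289 CPM (log2 fold change -1.65), with no overlap. In the passaged untreated libraries Pdgfra was at 172.3, 213.8, 226.9 and 215.5 CPM. Pdgfra, Dcn, Lum and Fap were lower in each passaged library than in the 10 Gy library of the same number. Col1a1 and Col1a2 were higher in each passaged library, and Col3a1 went both ways. Thy1 and Pdgfrb, surface markers that are not matrix genes, gave -0.06 and -0.20 and did not pass. Contractile genes of myofibroblasts moved less, with 6 higher and 2 lower of 20 and a median of 0.08. Acta2, the smooth muscle actin that defines myofibroblasts, was at 5373, 2748, 2265 and 1802 CPM untreated and 5552, 3027, 2841 and 3221 CPM at 10 Gy (log2 0.37, adjusted p 0.0737), and it passed without replicate 1 (log2 0.46, adjusted p 0.0285). Without replicate 1 the list had 9 higher and 2 lower genes, without replicate 4 it had 4 and 2, and without the pairing 3 and 1. Myh11 rose from 18.8, 28.8, 33.8 and 30.9 CPM to 41.4, 63.3, 73.3 and 72.6 CPM (log2 fold change 1.18, SE 0.0705, adjusted p 4.51e-05), and Cald1 and Des rose 1.56-fold and 2.53-fold, the latter without a call when the pairing was left out (adjusted p 0.434). Mylk, the myosin light chain kinase, fell 2.51-fold, also without a call without the pairing (0.124). Beside these, 5 of 8 markers of pericytes and smooth muscle were higher and 1 lower, Des and Myh11 among them. Their summed level was 129 to 218 CPM untreated and 182 to 320 CPM at 10 Gy, and its part in the result was not tested.

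**Figure D4:**
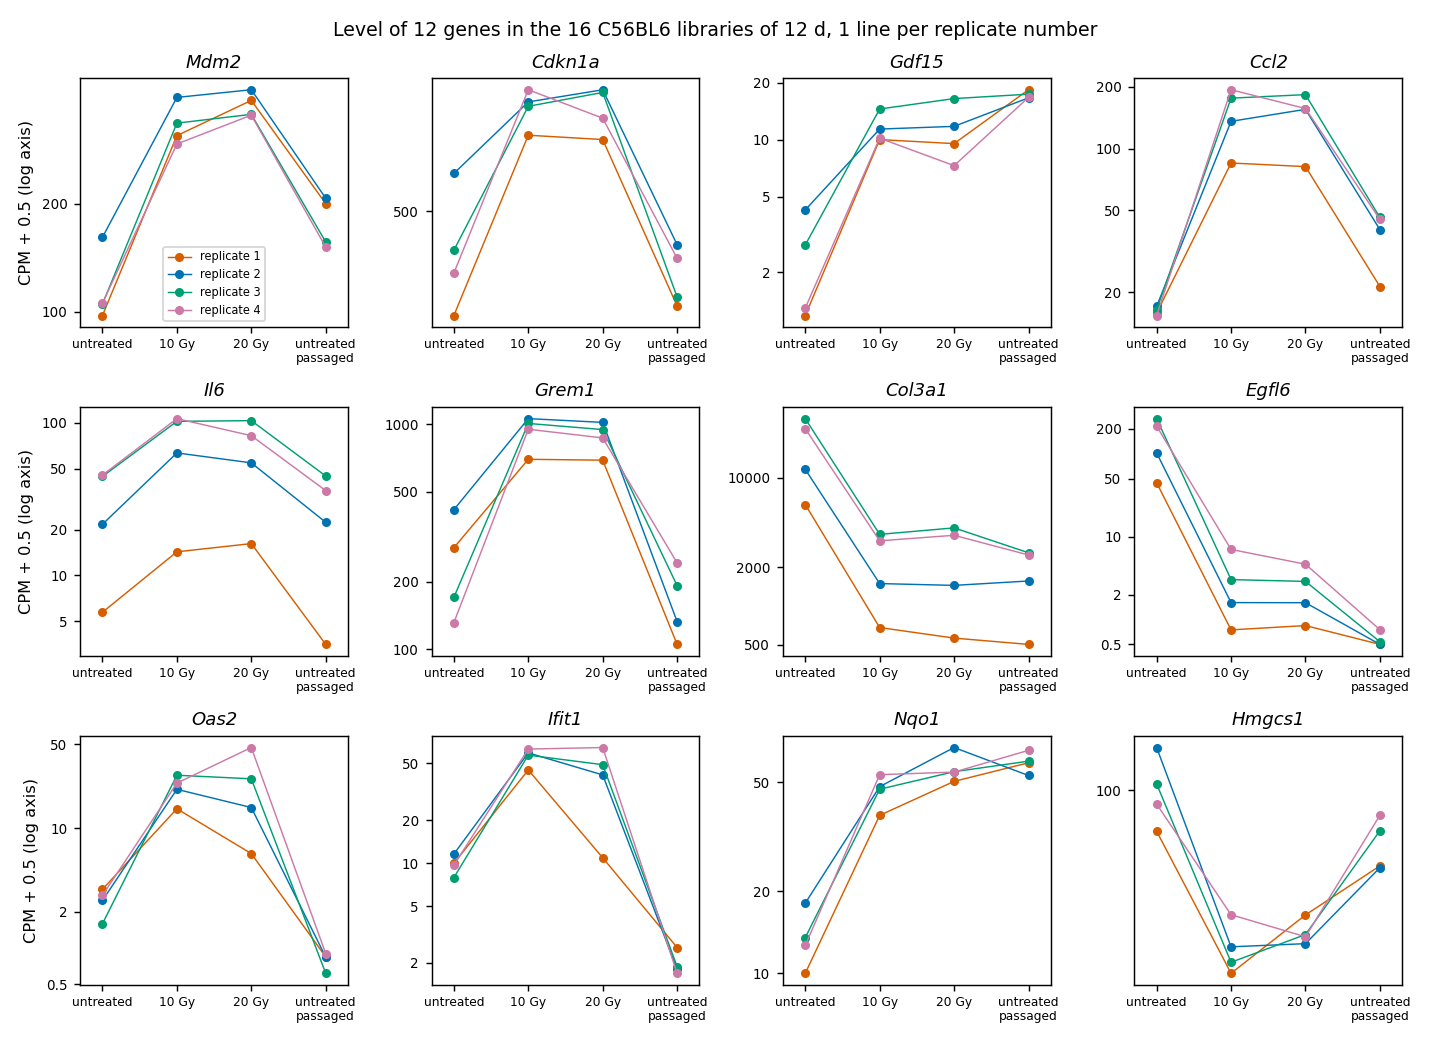
Level of 12 genes, as CPM + 0.5 on a log axis, in the 16 C56BL6 libraries of 12 d by treatment group, with 1 line per replicate number. The 10 Gy and 20 Gy libraries lie close together for Mdm2, Col3a1 and Egfl6, and for Oas2 and Ifit1 the untreated passaged libraries are the lowest.

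Of 25 genes of cholesterol synthesis and uptake, 16 fell and 0 rose, with a median of -0.49. Hmgcs1, which makes the HMG-CoA of the mevalonate pathway, fell from 86.8, 115, 102 and 95 CPM to 54, 59, 56 and 65.7 CPM (log2 fold change -0.73, SE 0.0875, adjusted p 0.000732). Dhcr7 and Idi1, enzymes of a late and an early step, fell 1.8-fold and 1.72-fold. Srebf2, the transcription factor of the pathway, fell 1.46-fold (adjusted p 0.00161). Without the pairing 10 of 25 passed. Without replicates 1 to 4 in turn 20, 11, 10 and 11 passed.

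Of 16 steroid-metabolising enzymes tested, 4 rose and 5 fell. Akr1c18, a hydroxysteroid dehydrogenase that inactivates progesterone, was at 0.143, 0.591, 0.497 and 0.562 CPM untreated and 7.16, 14.4, 26.2 and 25.1 CPM at 10 Gy (log2 fold change 5.35, SE 0.206, adjusted p 9.79e-06). Hsd3b6, which makes progesterone-type steroids, was at 0, 13.1, 6.0 and 10.9 CPM and 8.65, 247, 265 and 352 CPM, a 32-fold rise (adjusted p 4.05e-05). The level of Hsd3b6 in replicate 1 was far below that of the other 3 in both groups, and without replicate 1 its log2 fold change was 4.91. Both genes belong to families of close copies, and their counts are uncertain for that reason. Among those that fell, Cyp7b1, an oxysterol hydroxylase, went from 5.85, 10.4, 23.7 and 25.1 CPM to 1.1, 1.63, 2.4 and 2.76 CPM (log2 -2.91, adjusted p 5.09e-05), and Cyp1b1 (-1.09, adjusted p 0.0729 without the pairing). Without the pairing 2 of these enzymes were higher and 3 lower. Of 45 lysosome genes 18 fell and 4 rose, with a median of -0.13. Lamp2, a membrane protein of lysosomes, fell from 638, 722, 950.4 and 1004 CPM to 407, 426, 439.9 and 484 CPM (log2 -0.86, adjusted p 0.000796), and Ctso and Ctsf, cathepsin genes, fell 2.02-fold and 1.71-fold. Gla, an alpha-galactosidase, rose 1.75-fold. Glb1, the gene of the beta-galactosidase used to stain senescent cells, fell (log2 -0.38, adjusted p 0.00596). Without replicate 3 there were 10 lower and 2 higher lysosome genes, and without the pairing 13 and 1.

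Antioxidant and glutathione genes rose in part, 15 higher and 8 lower of 35. Nqo1, a quinone reductase, rose from 9.51, 17.6, 13 and 12.2 CPM to 37.4, 47.7, 46.7 and 52.8 CPM (log2 fold change 1.87, SE 0.118, adjusted p 5.43e-05), with no overlap. Gclc, which makes the precursor of glutathione, and Hmox1, the heme oxygenase, rose 2.67-fold and 2.54-fold. The cystine transporter gene Slc7a11, the thioredoxin reductase gene Txnrd1 and the sulfiredoxin gene Srxn1 rose 2.29-fold, 1.97-fold and 1.7-fold. The glutathione transferase gene Gstm2 fell (log2 -0.70, adjusted p 0.000863), and Gsr, Txn1 and Gstm1, which encode glutathione reductase, thioredoxin and another transferase, gave 0.13, 0.14 and -0.11 and did not pass. Gsta3 and Gsta4, glutathione transferases, rose at low levels, to 2.77, 1.07, 1.39 and 2.01 CPM and 9.01, 7.97, 8.5 and 10.4 CPM. The Slc7a11 call was lost without replicate 3 or 4 (adjusted p 0.0674 and 0.0519). Gstt1, the metallothionein gene Mt2 and Gpx7 fell 2.56-fold, 2.08-fold and 2.07-fold, and the Mt2 call was lost without the pairing (adjusted p 0.218). The mitochondrial and cytosolic superoxide dismutase genes Sod2 and Sod1 did not pass (0.04 and -0.12). Without the pairing 11 of the list were higher and 4 lower.

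Of 24 adipogenic and lipid storage genes, 11 fell and 4 rose. Adipoq, which encodes adiponectin, went from 3.44, 9.27, 15.4 and 6.71 CPM to 0.0709, 0.157, 1.11 and 0.509 CPM (log2 fold change -4.34, SE 0.353, adjusted p 0.000142). Lpl, the lipoprotein lipase, fell 5.28-fold from 401 to 70.9 CPM, and Cebpa, a factor of fat cell differentiation, 2.74-fold, while Pparg gave 0.25 (adjusted p 0.258). Plin2, the coat protein of lipid droplets, rose from 125, 81.6, 72.9 and 70.3 CPM to 166, 140.1, 143 and 136 CPM (log2 0.81, adjusted p 0.000973). The summed level of 7 adipocyte markers was 15.7 to 54.8 CPM untreated and 12.6 to 26.8 CPM at 10 Gy. Without the pairing 7 of the list were lower and 3 higher. Angiogenic and growth factors split evenly, 7 higher and 7 lower of 23. Fgf2, the basic fibroblast growth factor, rose from 62.2 ± 8.67 to 188 ± 61.9 CPM (log2 1.58, adjusted p 0.000147), and the EGF receptor ligands Ereg and Hbegf each rose 3.51-fold, Hbegf without a call when the pairing was left out (adjusted p 0.113). Pdgfb was under the floor untreated and at 2.09, 1.25, 0.916 and 0.659 CPM at 10 Gy. Pgf, placental growth factor, was at 8.11, 0.185, 0.298 and 0.231 CPM untreated and 6.59, 3.29, 4.33 and 3.84 CPM at 10 Gy. It was lower at 10 Gy in replicate 1 and higher in the other 3 pairs. The log2 fold change was 2.49 (adjusted p 0.0347) with replicate 1 and 4.004 (adjusted p 5.33e-06) without it, and the call was lost without replicate 2, 3 or 4 (adjusted p 0.104, 0.111 and 0.144). Vegfd, a lymphatic growth factor, fell from 628, 1428, 2012 and 1781 CPM to 180.4, 505, 688 and 719 CPM (log2 -1.51, adjusted p 6.78e-05, and 0.0646 without the pairing), and Angpt2 fell 4.13-fold. Without the pairing 3 of the list were higher and 2 lower.

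Outside the lists, the genes with the largest rise at a mean of at least 5 CPM included Ivl, Havcr2, Apol9a, Vmn2r79, Prl2c2 and Prl2c3. Ivl, which encodes the keratinocyte envelope protein involucrin, was at 3.12, 0.185, 0.133 and 0.165 CPM untreated and 15.8, 15.7, 8.62 and 5.58 CPM at 10 Gy (log2 fold change 4.31, SE 0.601, adjusted p 0.00138). Unlike Krt14, it was present at 10 Gy in all 4 replicates, and without replicate 1 its log2 fold change was 5.89. Havcr2, which encodes the receptor TIM-3, rose from 2.55, 1.74, 0.53 and 1.02 CPM to 15.5, 10.9, 10.1 and 9.05 CPM (log2 3.10, adjusted p 0.000161). Apol9a rose 10.4-fold. Prl2c2 and Prl2c3, proliferins of the prolactin family, rose 9.54-fold and 12-fold, and Vmn2r79, annotated as a vomeronasal receptor gene, 15.7-fold. These 4 genes belong to families of close copies, so their counts are uncertain. The genes with the largest fall included Adamts15, a protease that cleaves versican, from 29.96, 18.8, 169 and 154 CPM to 1.06, 0.627, 5.31 and 5.84 CPM (log2 fold change -4.82, SE 0.0962, adjusted p 6.49e-07). Car3, which encodes carbonic anhydrase 3, and Sectm1a fell from 2.4, 8.82, 21 and 8.49 CPM and 1.58, 2.51, 23.4 and 25.2 CPM to 0.0709, 0.0627, 0.60 and 0.18 CPM and 0.177, 0.157, 0.695 and 0.629 CPM. Megf6 fell 14.7-fold and Chl1, a neural adhesion gene, 12.1-fold. Untreated Chl1 was at 0.682, 1.29, 39.7 and 31.1 CPM, high in replicates 3 and 4 only, and was without a call when the pairing was left out (adjusted p 0.104).

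More genes were detected after irradiation at a similar depth. The untreated libraries had a count in 20618 to 21453 genes and the irradiated ones in 23542 to 24323, without overlap. For protein-coding genes the ranges were 14800 to 14922 and 16186 to 16504, and at 1 CPM or more they were 11753 to 11848 and 12046 to 12143, so most of the difference lay under 1 CPM. In 64 genes all 4 untreated libraries had 0 counts and every 10 Gy library had at least 3, whereas the reverse held for 1 gene. Of these 64, 58 are annotated as protein-coding, all but 1 had a count in every 20 Gy library, and 24 had 0 counts in the passaged libraries. They included, named after their values were seen, the brain-expressed X-linked genes Bex1 and Bex2, with 84 and 91 counts over the 4 irradiated libraries, the potassium channel gene Kcnc4 with 67 and the signalling gene Wnt7a with 54. The 20 Gy libraries had 24466 to 25727 detected genes at 32.47 to 36.89 M counts and the passaged ones 21227 to 22028 at 27.07 to 34.85 M. The share of counts on the mitochondrial genome was 1.27% to 1.42% untreated and 1.78% to 1.97% at 10 Gy.

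Against the other untreated culture, labelled passaged, the irradiated cells differed in more genes. Of 14885 genes tested, 8908 passed the threshold (59.8%), 4466 higher (30%) and 4442 lower (29.8%). This comparison shares the 10 Gy libraries with the first, so the values of both are given side by side. Proliferation genes were highest in the passaged cells. Mki67 was at 226, 179.5, 229.6 and 176 CPM in them, and 10 Gy against passaged gave a log2 fold change of -4.10 (adjusted p 3.91e-05), where 10 Gy against plain untreated gave -0.62. All 40 mitosis genes and 38 of 39 DNA replication genes were lower at 10 Gy than in passaged cells, with medians of -3.09 and -1.87, against -0.45 and -0.03 in the first comparison. Lmnb1 gave -2.83 against passaged cells and -0.41 against plain untreated cells. Cdkn2a, which gave 0.0012 against plain untreated cells, was at 59.4, 74.5, 35.9 and 47.1 CPM when passaged and higher at 10 Gy (1.25, adjusted p 0.000292). Double-strand break repair genes, of which 2 of 40 were lower in the first comparison, were lower in 34 of 40 against passaged cells.

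Some lists kept their direction against both controls and others did not. Counts against passaged cells are read against the shares of that comparison, 30% higher and 29.8% lower of all genes tested. Interferon-stimulated genes were higher in 40 of 41 against passaged cells (median 3.15) and p53 targets in 23 of 33, with 3 lower (median 0.45). Collagens were lower in 13 and higher in 7 of 28 against passaged cells, with a median of -0.32 against -1.28. Col3a1 was at 500.5, 1567, 2605 and 2502 CPM in passaged cells, so 10 Gy gave 0.32 (adjusted p 0.0399) against them and -2.99 against plain untreated cells. Complement genes had 10 higher and 3 lower against passaged cells (median 2.07) where 1 was higher and 9 lower against plain untreated ones (median -0.87). Lysosome genes, 4 higher and 18 lower of 45 against plain untreated cells, were 36 higher and 2 lower against passaged ones, with medians of -0.13 and 0.52. Contractile genes were 6 higher and 2 lower of 20 against plain untreated cells and 0 higher and 16 lower against passaged ones (medians 0.08 and -0.56). Matrix glycoproteins and proteoglycans, 6 higher and 31 lower of 49 against plain untreated cells, were 18 higher and 15 lower against passaged ones. Their medians were -0.71 and 0.14. Cytokines and chemokines, 9 higher and 6 lower of 22 against plain untreated cells, were 17 higher and 1 lower against passaged ones (medians -0.002 and 1.61). Antigen presentation genes, 5 higher and 2 lower of 21 against plain untreated cells, were 17 higher and 1 lower against passaged ones (medians -0.08 and 1.125). Inhibitors of cyclin-dependent kinases, 2 higher and 4 lower of 7, were 4 higher and 3 lower against passaged cells (medians -0.69 and 1.045). Gdf15 was at 17.9, 16.2, 16.9 and 16.3 CPM when passaged, and its log2 fold change was -0.61 against passaged and 2.79 against plain untreated cells. Saa3, Lcn2, Steap4 and Dpt had the largest rises against passaged cells. Saa3, an acute-phase gene, and Lcn2, which encodes lipocalin 2, gave 9.43 and 8.02, whereas against plain untreated cells they gave -0.44 (adjusted p 0.155) and 0.90 (adjusted p 0.00941, and 0.0647 without replicate 4). Dpt, which encodes the matrix protein dermatopontin, was higher than in passaged cells (6.42) and lower than in plain untreated ones (-2.26). Pclaf, Kif14 and E2f7, genes of dividing cells, were with Mki67 the largest falls against passaged cells (-3.90, -3.82 and -3.79).

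Few genes passed the test between the 20 Gy and the 10 Gy libraries of the same animals. Of 15463 genes tested, 46 passed the threshold (0.297%), 35 higher at 20 Gy (0.226%) and 11 lower (0.0711%). The pseudogene Smt3h2-ps alone fell by at least 2-fold (0.00647% of genes tested). None passed without the pairing, where 301 genes had an unadjusted p under 0.05 (1.95%), none passed without replicate 1 and 1 without replicate 2, while 217 passed in DESeq2 and 545 without the filter on low counts. The proliferation genes Mki67 and Top2a were lower at 20 Gy, with Mki67 at 28.4, 7.31, 10.9 and 7.28 CPM at 10 Gy and 12.8, 5.0, 8.98 and 4.04 CPM at 20 Gy (log2 fold change -0.72, adjusted p 0.0448). Prc1, a gene of cell division, and Crabp1, a retinoic acid binding protein, were also lower, with log2 fold changes of -0.72 and -0.70. The largest rises by the naming rule were those of Cobl, Arhgap20, Ces2g and Cdk6, from 0.49 down to 0.42. The cyclin D partner Cdk6 had already risen from plain untreated to 10 Gy (26.3, 22.1, 12.7 and 12.8 CPM to 37.8, 56.9, 45.6 and 43.6 CPM, log2 1.40, adjusted p 0.00161). No p53 target, interferon-stimulated gene or collagen passed the test between the doses, and the medians of these lists were 0.02, -0.27 and 0.07.

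The 35 genes that were higher at 20 Gy were long. Their median summed exon length was 13989 bp, against 4154 bp over all genes tested, and 31 of 35 were longer than 5000 bp, as were 39.4% of all genes tested. Among them were the genes of the giant cytoskeletal proteins Dst, Macf1 and Ahnak. For 10 Gy against untreated cells the median lengths were 4418 bp for higher, 4300 bp for lower and 4100 bp for the remaining genes. Whether length has a part in the dose comparison was not tested.

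**Figure D5:**
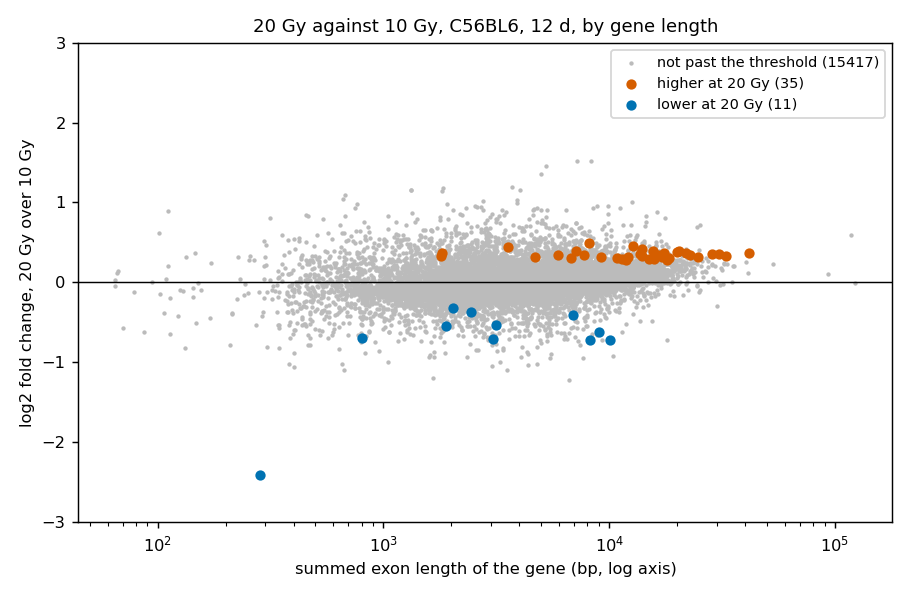
Log2 fold change of 20 Gy over 10 Gy in C56BL6 cells at 12 d against the summed exon length of the gene in bp on a log axis, for the genes tested. The 35 genes higher at 20 Gy lie mostly to the right of 5000 bp with changes near 0.3. The 11 lower genes lie on both sides of 5000 bp, with a median of 3043 bp and Mki67, Top2a, Prc1 and Il1rl1 longer than 5000 bp.

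The response of C56BL6 cells was last set against that of wild mouse fibroblasts treated in the same way. The difference between the changes at 10 Gy was tested as an interaction over 16 libraries with the animal as a block, and 52 of 15850 genes passed (0.328%), 36 with a higher (0.227%) and 16 with a lower (0.101%) change in wild mice. None passed without the block, where 302 genes had an unadjusted p under 0.05 (1.91%). Leaving out wild replicate 1 or 4 left 3 and 0 genes, and leaving out both animals numbered 4 left 1, so single animals decide this count. The fold change of Cdkn1a was larger in wild than in C56BL6 mice (difference 1.44 on the log2 scale, adjusted p 0.0472). Its level went from 83.7 ± 38.3 to 397.9 ± 81.7 CPM (SD, n = 4) in wild mice. In C56BL6 mice it went from a mean of 407.6 to 750.3 CPM, so the untreated level was lower in wild mice. The change of Nqo1 was smaller in wild mice, from 9.72 ± 1.81 to 14.9 ± 1.56 CPM against 12.4 ± 3.2 to 44.6 ± 6.27 CPM in C56BL6 mice (difference -1.23, adjusted p 0.0189). The fold change of Egfl6 was also smaller in wild mice (difference 3.69, adjusted p 0.0189). Its level went from 194.6 ± 220 to 37.88 ± 44.5 CPM in wild and from 148.9 ± 96.3 to 2.511 ± 2.68 CPM in C56BL6 mice. The imprinted noncoding RNA H19 fell in C56BL6 cells from 99.8, 901, 1559 and 997 CPM to 17.9, 69.7, 129 and 92.9 CPM, in every pair, and was at 55.7 ± 60.0 and 34.8 ± 31.6 CPM in untreated and irradiated wild cells (difference 3.18, adjusted p 0.0345). Arhgap20 fell in all 4 C56BL6 pairs, from 74.3 ± 52.9 to 20.9 ± 15 CPM, and rose in all 4 wild pairs, from 6.93 ± 8.54 to 14.6 ± 16.2 CPM (difference 2.88, adjusted p 0.0472). Of the 41 interferon-stimulated genes 2 passed, Trim30a and Ifit3b, both in families of close copies and both with the larger rise in wild mice. Trim30a went from 2.34 ± 1.52 to 25 ± 13.6 CPM in wild and from 14.3 ± 3.37 to 26.8 ± 6.54 CPM in C56BL6 mice (difference 2.48, adjusted p 0.0189), and Ifit3b gave a difference of 1.46 (adjusted p 0.0307). Kcnmb1, a potassium channel subunit, and Nt5e, the ectonucleotidase CD73, had the lowest differences (-3.17 and -2.12).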

How the data were processed

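Reads per gene were taken as raw counts deposited by the authors. Per the file headers, featureCounts 2.0.3 counted them on GRCm39 with the Ensembl 108 annotation, with no strand, pair, multi-mapping or overlap option. So reads of a gene and its antisense partner are not separated, multi-mapping reads are left out, and reads in overlapping genes are unassigned. Per the submitters' processing notes, Trim Galore and HISAT2 came before. The deposited exon length per gene (bp) was used as given. Of the table's columns 32 were used, and 24 of other libraries were not analysed here. Of 56980 gene IDs, 56236 matched a symbol in GENCODE vM39.

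The main test was edgeR 4.0.16 (R 4.3.3, limma 3.58.1) with its default filter on low counts, TMM scaling and the quasi-likelihood F test, replicate number as a block, and Benjamini-Hochberg adjustment at 0.05. Adjusted p-values in the text are from it unless DESeq2 (1.42.0) is named. The standard error is the log2 fold change divided by the square root of F. Levels are CPM scaled by TMM over 16 libraries, and pair differences use log2(CPM + 0.5). The 4 numbers pair the libraries because the library names repeat an animal code. After the mean of each group was subtracted, same-numbered libraries had correlations of 0.53 to 0.812, against -0.702 to 0.6 for other numbers (replicates 3 and 4 also correlated, at 0.556 and 0.6). The subtraction by itself lowers the correlations between other numbers, so part of this contrast is built in. Replicates differed by 17.1 to 266 times the sampling noise. The scripts were tested on simulated data.

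The libraries and the 24 gene lists were chosen with earlier results of these data known. Named genes are a panel of 9, the 3 largest changes in each direction of each list, the 10 largest in each direction at a mean of at least 5 CPM with all pairs alike, 4 in each direction for each of 2 further comparisons and 2 for the interaction. A few members of the lists are counted and not reported by name here. Genes beyond that rule were picked with their values in view. The settings varied were no block, each replicate left out, RLE and upper quartile scaling, no filter, DESeq2, and a fit with all groups.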

Additional observations from a re-analysis of the deposited data

Results flagged for a closer look

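In 31 of 274 groups of 4 libraries, 1 library lay far from the other 3 (its gap to the nearest one, over the whole range, passed Dixon's 95% value). Chance gives about 1 in 20 only for independent, normally distributed values. These are CPM values and the groups reuse the same 8 libraries, so the number found cannot be set against that rate. Most of them are replicate 1, and no cause was tested. In untreated replicate 1 the level was high for Mki67 (56.2 CPM), Ivl (3.12 CPM), Bub1b (28.5 CPM), Hmgb2 (22.6 CPM), Sun1 (132 CPM), Mmp13 (0.323 CPM), Inhba (186 CPM), Isg20 (44.7 CPM), Nlrc5 (2.15 CPM), Col10a1 (1.79 CPM), Akr1c14 (439 CPM), Cd68 (3.12 CPM), Pgf (8.11 CPM) and Hbegf (27.6 CPM). It was low there for Cdkn2b (34.8 CPM) and Gins4 (33.5 CPM). In irradiated replicate 1 the level was high for Nuf2 (6.77 CPM), Ccnb2 (11.4 CPM), Plaur (71.5 CPM), Igfbp4 (685 CPM), Dhcr7 (10.1 CPM), Star (26.8 CPM) and Akr1c14 (138 CPM). It was low there for Dhx58 (8.76 CPM), Cfb (0.106 CPM), Cyp1b1 (225 CPM) and Hgf (28.5 CPM).

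For Akr1c14, a hydroxysteroid dehydrogenase gene, the level was 3.94 to 11.4 CPM in the other untreated libraries and 3.03 to 6.99 CPM in the other irradiated ones. Outside replicate 1, Mdm2 (161 CPM) and Cdkn2a (174 CPM) were high in untreated replicate 2, Spp1 (96.8 CPM) in untreated replicate 4 and Sesn1 (17.9 CPM) in irradiated replicate 4.

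The change at 10 Gy differed between wild and C56BL6 mice, by the interaction test, for Egfl6 (3.69), H19 (3.18), Arhgap20 (2.88), Trim30a (2.48), Fbn2 (2.26), Chl1 (1.89), Ifit3b (1.46), Cdkn1a (1.44), Nqo1 (-1.23), Nt5e (-2.12) and Kcnmb1 (-3.17). These are log2 differences, wild minus C56BL6, and none passed without the replicate block.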

How the results depend on the processing

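Without the replicate block 3107 genes passed between 10 Gy and untreated cells (5786 with it), 0 between 20 and 10 Gy (46 with it) and 0 in the wild interaction (52 with it). Leaving out 1 replicate number gave 3376 to 6102, 0 to 194 and 1 to 53 genes in the same order, and the interaction gave 3 without wild replicate 1 and 0 without wild replicate 4, both chosen after seeing the data. Without the filter on low counts 545 and 540 genes passed between doses and in the interaction, and with DESeq2 217 and 288. RLE and upper quartile scaling kept these 3 counts within 1.5 times. No gene passed in opposite directions in any setting. Of 354 genes of the lists or the naming rule that passed, 268 did so without each replicate in turn and 141 lost the call without the block. The log2 fold change of Cdkn2a, 0.0012, turned to -0.0274 without the filter and -0.0208 in the fit with all 4 groups, and ran from -0.1025 (without replicate 4) to 0.0488 (without replicate 1) with 1 replicate left out, never past the threshold. The cause was not tested for any of these. A floor of 3 counts, 0.093 to 0.113 counts per M before TMM scaling, limits what could be detected, and the labels do not say whether each animal was cultured more than once.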
